A study of Mus musculus with 4 samples.

Results

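Mitosis and spindle genes were examined in BV2, a line of mouse microglia-derived cells that grows without limit, with PU.1 (gene Spi1) knocked out by CRISPR-Cas9 according to the labels. The set holds 40 genes picked by symbol for their known part in cell division, and all 40 were found among the 24411 gene symbols of the files. Both groups carry the knockout label and differ by treatment: 2 libraries came from untreated cells and 2 from cells given lipopolysaccharide (LPS, the bacterial ligand of TLR4) at 10 ng/ml. The exposure is given as 2 h in one label and as 4 h in another, and which holds was not settled. Cells without the knockout were not used here, and the labels state neither whether the line is 1 clone nor whether each library had its own culture. The p-values therefore measure only the spread between these libraries, which may be technical.

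Mitosis is driven by the kinase CDK1 bound to cyclins A and B, which the CDC25 phosphatases switch on and which PLK1 and the Aurora kinases act beside. Chromosomes attach to spindle microtubules through kinetochores. The spindle checkpoint holds back the anaphase-promoting complex (APC/C) and its coactivator CDC20 until every chromosome is attached, after which securin and cyclin B are destroyed and the cell divides. Transcripts of most of these genes are known to be low in G1 and highest in G2 and mitosis. This timing is known to run through the MuvB complex, which represses with E2F4 and p130 and activates with B-MYB and FOXM1, and which binds the CHR element of promoters through LIN54.

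Gene counts totalled 3256197 to 4502105 per library, and 1 count was worth 0.191 to 0.347 CPM (the count divided by the TMM-scaled library size in units of 1e6 reads, the scale of all levels below). Reads in no feature were 53.0% and 51.8% of uniquely placed reads untreated and 59.1% and 57.4% after LPS; their part in the members' falls was not tested. Spi1 was counted in all 4 libraries, with 743 to 958 reads, which does not show the edit. Of 11 listed symbols of microglial and macrophage markers, 10 were found. Csf1r, Cd68, Trem2, Tyrobp and Adgre1 were at or above 263 CPM in every library, whereas Aif1, Cx3cr1 and P2ry12 lay between 0 and 10.0 CPM. Itgam was at 22.2 and 29.2 CPM untreated and at 120 and 115 CPM after LPS, and Tmem119 at 16.1 and 22.1 CPM against 4.85 and 6.07 CPM. Fibroblast, astrocyte, neuron and lymphocyte marker lists summed to 0 to 0.693 CPM in each library. The microglial list summed to 2072 and 2197 CPM untreated and to 2481 and 2670 CPM after LPS, and 4 endothelial markers to 22.8 and 23.2 CPM against 49.9 and 34.0 CPM; whether this bears on the results below was not tested.

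The members were picked by symbol and not by promoter sequence. The CHR element is known from genes of this kind, as given above, so its share among them was not an open test. RefSeq promoters (GRCm38.p6, 250 bases before to 50 after the start, the first start listed for a gene) were matched for 33 members, and 7 had no entry (Ccna2, Cdc25c, Tpx2, Aurkb, Incenp, Kif20a and Foxm1). A CHR-type hexamer, spelled TTTGAA, with the variants spelled TTCGAA or else TTTAAA, on either strand, was present in 28 of the 33 (84.8%), against 20.6% of 7703 tested genes with a promoter and 32.1% of 28 genes of G1/S and DNA replication. A CCAAT box on either strand was present in 25 members (75.8%), against 39.2% of tested genes. An E2F-type heptamer (TTCCCGC, or the variants spelled TTGGCGC or else TTTCGCG, either strand) was present in 4 members (12.1%), against 15.0% of tested genes and 14 of the 28 G1/S genes. These matches are descriptions of letters in a window and not measured binding sites.

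The CHR-type match began within 50 bases of the start site in 25 members, a count that was not made for other genes. Both motifs lay within the 100 bases before the start in 10 members (30.3%), against 1.56% of tested genes. Shown here are those 100 bases for the 4 of the 10 with the deepest falls after LPS (Cdc20, Plk1, Cenpa and Kif11) and for the 3 that did not pass the test (Bub3, Top2a and Cdk1), 5′ to 3′ on the gene's strand, with CHR-type and CCAAT matches of either strand in capitals (read on the other strand, TTTGAA appears as TTCAAA, whereas CCAAT appears as ATTGG). They lie at chr4:118437344-118437443 (Cdc20, minus strand), chr7:122159335-122159434 (Plk1, plus), chr5:30666786-30666885 (Cenpa, plus), chr19:37376282-37376381 (Kif11, plus), chr7:131560270-131560369 (Bub3, plus), chr11:99024190-99024289 (Top2a, minus) and chr10:69352913-69353012 (Cdk1, minus).
Cdc20: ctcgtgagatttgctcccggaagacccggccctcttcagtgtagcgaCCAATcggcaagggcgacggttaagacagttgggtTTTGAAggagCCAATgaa
Plk1: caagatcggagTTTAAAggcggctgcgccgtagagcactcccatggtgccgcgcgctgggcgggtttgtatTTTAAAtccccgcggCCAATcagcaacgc
Cenpa: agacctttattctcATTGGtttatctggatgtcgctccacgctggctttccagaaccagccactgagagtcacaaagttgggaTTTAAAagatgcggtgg
Kif11: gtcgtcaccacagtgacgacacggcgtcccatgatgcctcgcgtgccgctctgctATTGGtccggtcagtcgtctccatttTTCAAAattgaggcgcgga
Bub3: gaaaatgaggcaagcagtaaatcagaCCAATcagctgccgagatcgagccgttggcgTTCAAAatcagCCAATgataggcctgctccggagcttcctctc
Top2a: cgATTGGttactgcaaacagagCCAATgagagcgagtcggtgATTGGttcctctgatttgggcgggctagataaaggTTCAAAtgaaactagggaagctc
Cdk1: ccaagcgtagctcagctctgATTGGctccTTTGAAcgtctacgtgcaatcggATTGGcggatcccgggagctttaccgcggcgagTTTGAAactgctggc
Within these 100 bases both motifs were held by 7 of 19 members that were lower after LPS (36.8%) and by 3 of the 14 others (21.4%). Over the 300-base windows, 17 of 19 members that were lower after LPS held a CHR-type match (89.5%), as did 11 of the 14 others (78.6%). Both motifs were held over the 300 bases by 14 of the 19 (73.7%) and by 10 of the 14 (71.4%), which are close shares. None of these differences was tested.

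**Figure D1:**
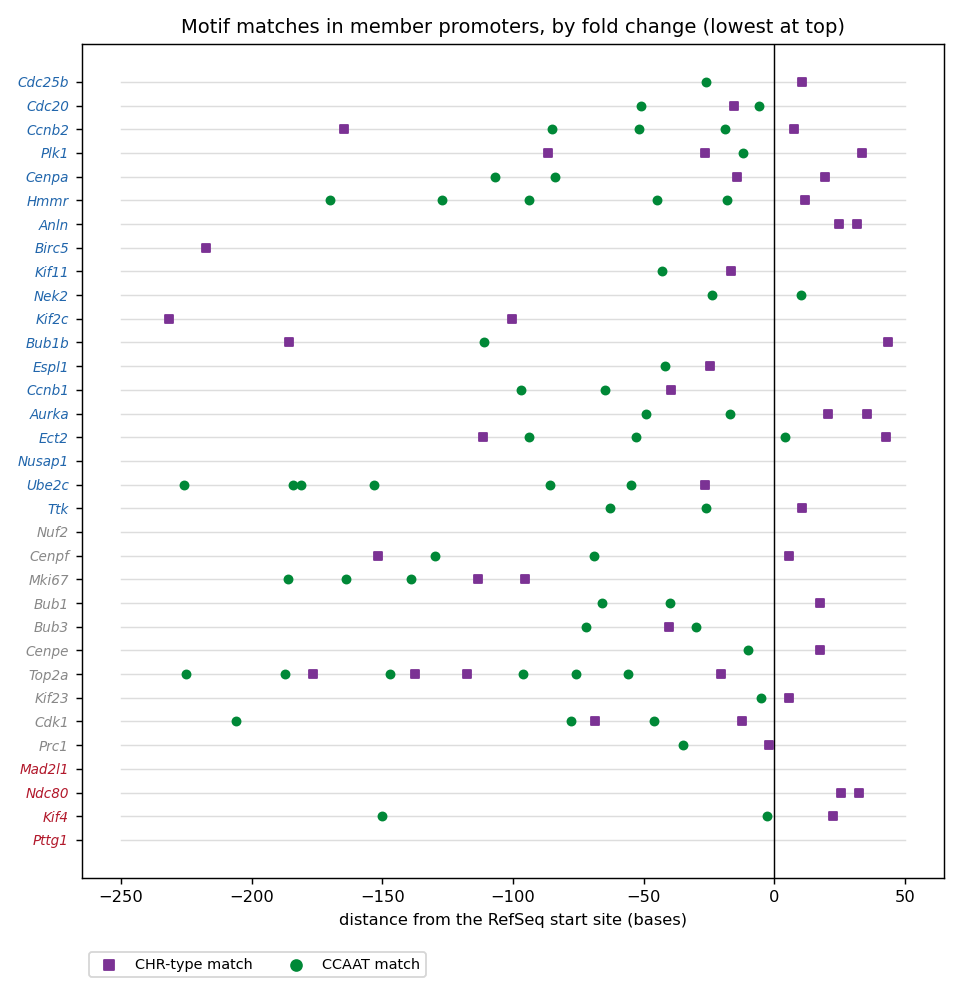
CHR-type matches (squares) and CCAAT matches (circles) in the 33 member promoters, with the distance from the RefSeq start site in bases on the x axis and members ordered by log2 fold change, lowest at the top; names are blue for lower, red for higher and grey for did not pass. Of the CHR-type matches 30 of 44 begin within 50 bases of the start, and of the CCAAT matches 20 of 57. These positions were counted for the members only. Nusap1, Nuf2, Mad2l1 and Pttg1 show neither motif.

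After LPS, 24 of the 40 mitosis and spindle genes fell and 4 rose (edgeR quasi-likelihood test, adjusted p below 0.05 over all 9992 genes tested). The share that fell was 60.0%, beside 25.3% of all genes tested, and the share that rose was 10.0%, beside 26.6%; 28 members passed in either direction, where 51.9% of all genes did. All 40 members passed the filter on low counts. Their median log2 fold change was -0.61, beside 0.0006 over all genes tested, and single members ranged from -1.73 (Cdc25b) to 0.56 (Pttg1). A fall of 2-fold or more was called in 7 members (17.5%, beside 7.73% of all genes tested): Cdc25b, Cdc20, Aurkb, Ccnb2, Plk1, Cenpa and Hmmr. The groups did not overlap with LPS lower in 27 members (67.5%, beside 37.6%) and with LPS higher in 5 (12.5%, beside 37.5%).

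The summed level of the 40 members was 4739 and 4743 CPM in the untreated libraries and 3314 CPM in both LPS libraries. Before any TMM scaling they took 0.550% and 0.521% of untreated gene counts against 0.294% and 0.291% after LPS. Those totals include Rn45s, which took 14.56% and 18.99% of untreated gene counts against 20.94% and 19.96% after LPS. With 5 abundant entries left out, Rn45s among them, the members took 0.6787% and 0.6802% against 0.4116% and 0.4025%. In bulk RNA, fewer cells in mitosis and less of these transcripts per cell cannot be told apart. With DESeq2 21 members were lower and 0 higher, beside 1486 and 1838 of all 9992 genes. With scaling by library size alone 31 members were lower and 0 higher, beside 4778 and 1379 of all 9992 genes. With DESeq2 the log2 fold changes of the 4 were of like size (0.56 for Pttg1, 0.41 for Mad2l1, 0.45 for Ndc80 and 0.47 for Kif4), but none passed. Pttg1 kept its call without any 1 library, whereas Mad2l1 lost it without 1 of the 4 libraries, Kif4 without 2 and Ndc80 without 3.

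**Figure D2:**
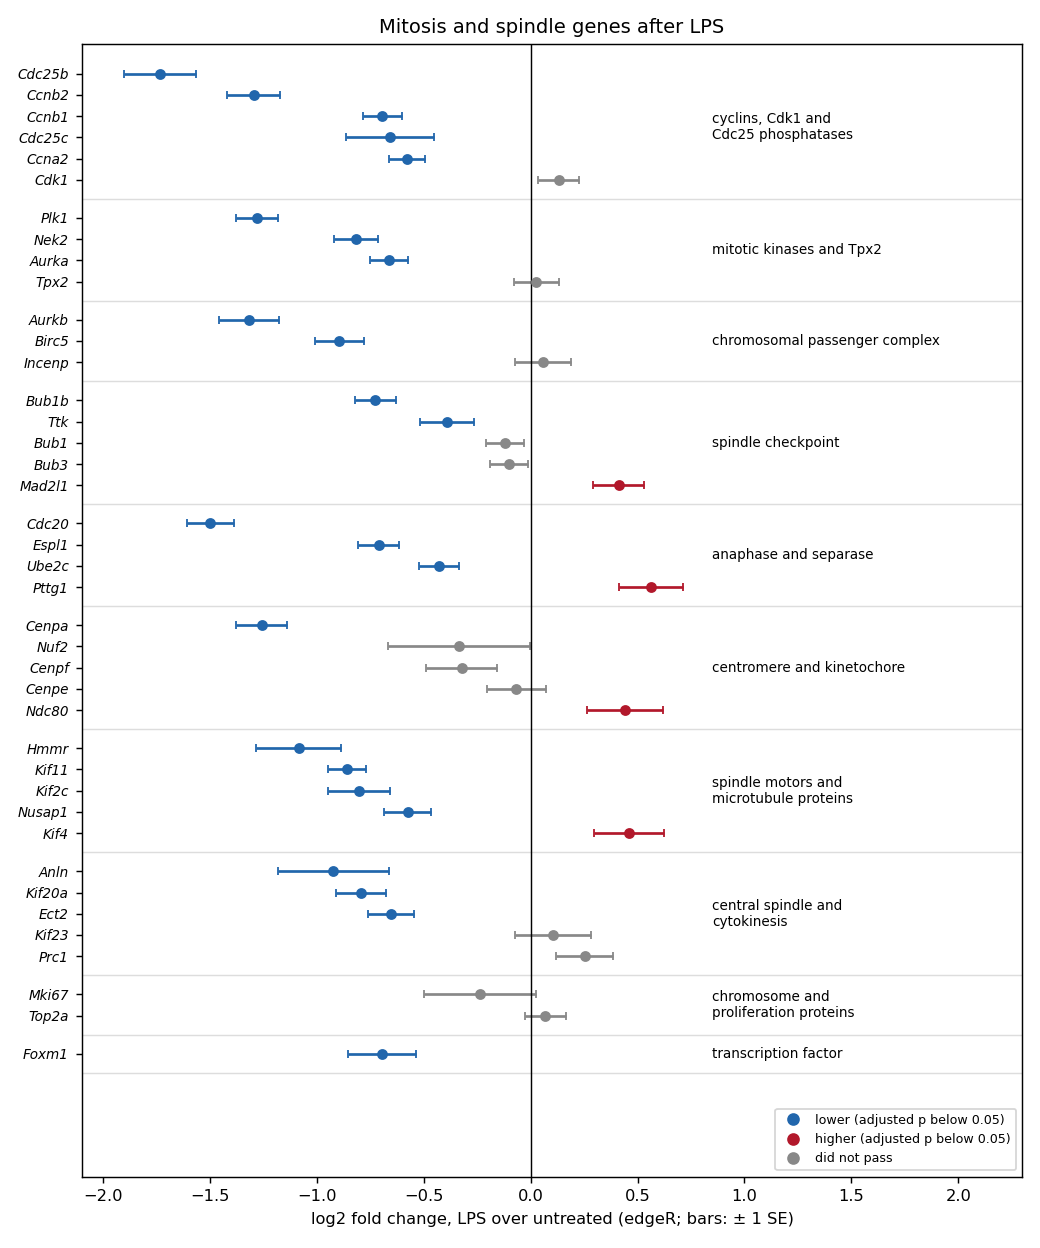
Log2 fold change, LPS over untreated, with its approximate SE (bars) for the 40 members, grouped by role on the y axis and coloured by call. Every role except the pair Mki67 and Top2a holds genes that fell, and every role except the single gene Foxm1 holds a member with a log2 fold change above 0.

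Of the cyclins, Cdk1 and the Cdc25 phosphatases, 5 of 6 fell (83.3%, beside 25.3% of all genes tested) and Cdk1 did not pass. Ccna2, cyclin A2, which acts from S phase into early mitosis, was at 483 and 462 CPM untreated and at 305 and 328 CPM after LPS (-0.58 as log2 fold change, SE 0.08, edgeR adjusted p = 1.05e-07). Ccnb1, cyclin B1, the main mitotic partner of CDK1, was at 263 and 283 CPM against 165 and 172 CPM (-0.69, SE 0.09). Ccnb2, cyclin B2, was at 96.6 and 101 CPM against 38.5 and 41.9 CPM (-1.29, SE 0.12, edgeR adjusted p = 1.19e-12). In all 3 cyclin genes both LPS libraries lay below both untreated ones, as they did in 37.6% of all genes tested. Ccnb2 was left at 40.8% of its untreated level while Ccna2 kept 67.0%. Their kinase differed from them: Cdk1 was at 170 and 166 CPM untreated and at 167 and 200 CPM after LPS, with overlapping groups (0.13, SE 0.09, edgeR adjusted p = 0.251). Its call and sign turned on single libraries: it was higher without LPS replicate 1 (0.25, edgeR adjusted p = 0.0187) and at -0.008 without LPS replicate 2. Scaling by library size alone gave -0.23.

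Cdc25b, a phosphatase that activates CDK1 at the G2/M boundary, had the lowest log2 fold change of the set. It was at 46.7 and 47.1 CPM untreated and at 14.2 and 14.0 CPM after LPS (-1.73, SE 0.17, edgeR adjusted p = 1.67e-12), which left 30.1%. Cdc25c, which sustains CDK1 activation, was at 21.2 and 22.3 CPM against 17.3 and 10.6 CPM (-0.66, SE 0.21, edgeR adjusted p = 0.0067). The 2 LPS libraries of Cdc25c lay far apart, and its call was lost without LPS replicate 2 (-0.33, adjusted p = 0.254) and with DESeq2 (adjusted p = 0.13).

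Of the mitotic kinases and Tpx2, 3 of 4 fell (75%, beside 25.3% of all genes tested). Plk1, the polo-like kinase of mitotic entry, spindle assembly and cytokinesis, was at 216 and 208 CPM untreated and at 83.5 and 90.8 CPM after LPS (-1.28, SE 0.10, edgeR adjusted p = 8.53e-16). Aurka, the Aurora kinase of centrosomes and spindle poles, was at 257 and 252 CPM against 156 and 165 CPM (-0.66, SE 0.09). Nek2, a kinase of centrosome separation, was at 141 and 146 CPM against 85.9 and 77.4 CPM (-0.82, SE 0.10). The groups of these 3 kinases did not overlap, as in 37.6% of all genes tested with LPS lower. Tpx2, the microtubule protein that activates Aurora A, was at 98.9 and 114 CPM against 106 and 111 CPM, with overlapping groups (0.03, SE 0.10, edgeR adjusted p = 0.843).

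The 3 members of the set that belong to the chromosomal passenger complex showed the same kind of split. Of these, 2 fell (66.7%, beside 25.3% of all genes tested). The set does not cover the whole complex. Aurkb, its kinase, was at 67.3 and 64.1 CPM untreated and at 27.0 and 25.8 CPM after LPS (-1.32, SE 0.14, edgeR adjusted p = 2.12e-11), and Birc5, survivin, which brings the complex to centromeres, was at 105 and 103 CPM against 55.8 and 56.5 CPM (-0.89, SE 0.11). Incenp, the scaffold that holds and activates Aurora B, was at 41.7 and 46.9 CPM against 48.2 and 44.0 CPM (0.06, SE 0.13, edgeR adjusted p = 0.733). Its groups overlapped, and its sign turned under 4 of the 14 alternative settings.

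**Figure D3:**
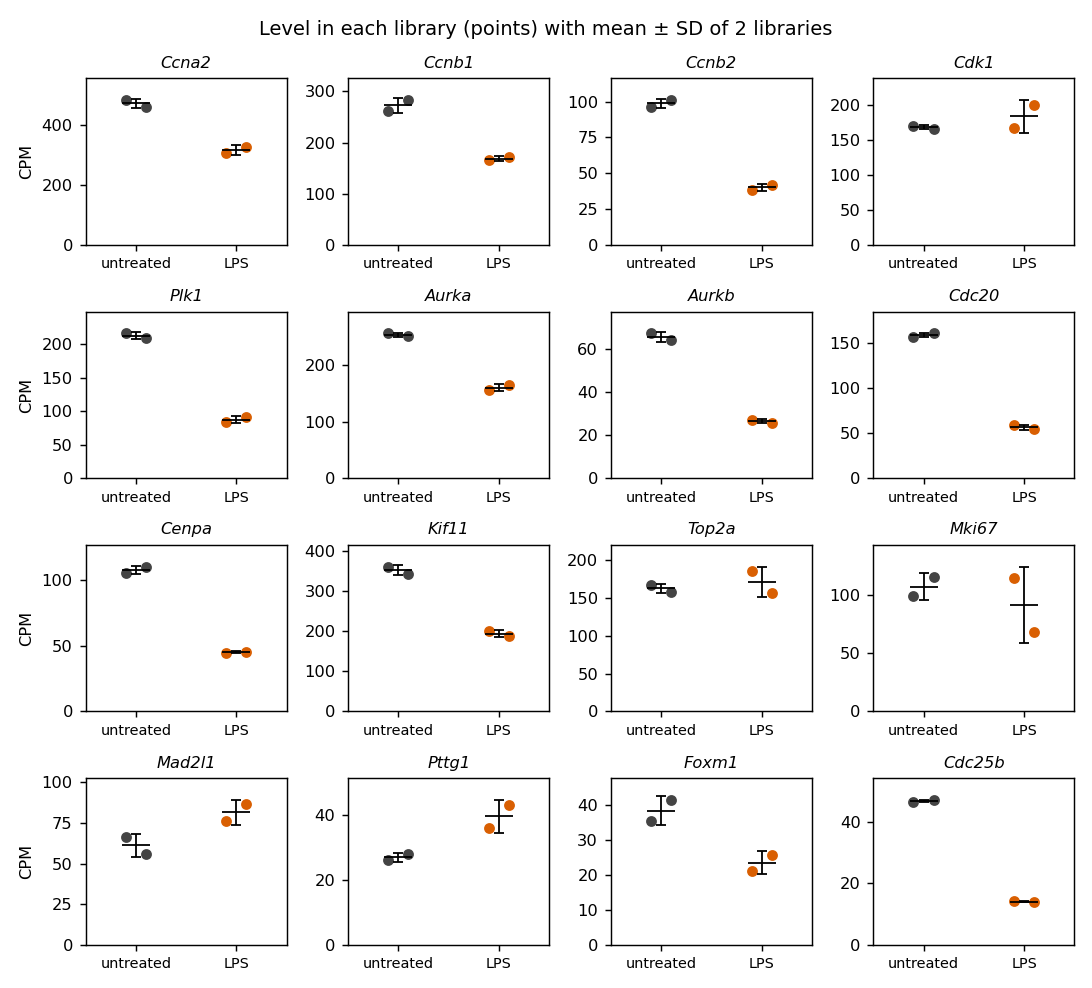
CPM in each library (points, 2 untreated and 2 LPS) with the mean ± SD (black) for 16 members; each y axis starts at 0 and has its own range. Ccnb2, Plk1, Aurkb, Cdc20, Cenpa and Cdc25b sit at under 0.5 of their untreated mean after LPS, Cdk1, Top2a and Mki67 overlap between the groups, and Mad2l1 and Pttg1 are higher after LPS.

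Of the 5 spindle checkpoint genes, 2 fell and 1 rose (40% and 20%, beside 25.3% and 26.6% of all genes tested). Bub1b and Ttk fell, Mad2l1 rose, and Bub1 and Bub3 did not pass. Bub1b, which encodes BUBR1 of the mitotic checkpoint complex, was at 182 and 187 CPM untreated and at 111 and 112 CPM after LPS (-0.73, SE 0.10, edgeR adjusted p = 9e-09). Ttk, the MPS1 kinase that starts checkpoint signalling, was at 62.3 and 60.6 CPM against 45.4 and 48.3 CPM (-0.39, SE 0.13, edgeR adjusted p = 0.00804), a call lost with DESeq2 (adjusted p = 0.109) and without untreated replicate 1 (adjusted p = 0.0778). Bub1, a checkpoint kinase at kinetochores, was at 222 and 219 CPM against 199 and 207 CPM (-0.12, SE 0.09, edgeR adjusted p = 0.269), and its partner Bub3 at 198 and 201 CPM against 181 and 191 CPM (-0.10, SE 0.09, edgeR adjusted p = 0.357). In both genes the LPS libraries lay slightly below the untreated ones, and LPS lay lower without overlap in 37.6% of all genes tested. Bub1 was lower after GC correction (-0.42, edgeR adjusted p = 4.47e-05), with upper quartile scaling (-0.22, adjusted p = 0.0364) and with library size alone (-0.48), and Bub3 with library size alone (-0.46). Mad2l1, which encodes the CDC20 inhibitor MAD2, went the other way, from 66.4 and 56.2 CPM to 76.2 and 86.8 CPM (0.41, SE 0.12, edgeR adjusted p = 0.00354). That rise did not pass with DESeq2 (adjusted p = 0.0597), when only library size was scaled for (log2 fold change 0.05), after GC correction (0.08) or without untreated replicate 2 (0.29).

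The genes of anaphase onset included 1 of the deepest falls and the highest rise. Of these 4 genes, 3 fell and 1 rose (75% and 25%, beside 25.3% and 26.6% of all genes tested). Cdc20, the APC/C coactivator that the checkpoint restrains, was at 157 and 161 CPM untreated and at 58.6 and 54.3 CPM after LPS (-1.50, SE 0.11, edgeR adjusted p = 1.06e-16), which left 35.4%. Ube2c, the ubiquitin-conjugating enzyme of the APC/C, was at 223 and 244 CPM against 163 and 183 CPM (-0.43, SE 0.09), and Espl1, separase, which cleaves cohesin, at 208 and 207 CPM against 136 and 118 CPM (-0.71, SE 0.10). Pttg1, securin, the inhibitor of separase, rose from 26.0 and 27.9 CPM to 36.0 and 43.1 CPM (0.56, SE 0.15, edgeR adjusted p = 0.00147). Its groups did not overlap, as in 37.5% of all genes tested with LPS higher. Pttg1 did not pass with DESeq2 (adjusted p = 0.0582) or when only library size was scaled for (log2 fold change 0.20).

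At centromeres and kinetochores 1 of 5 genes fell (20%, beside 25.3% of all genes tested). Cenpa, the centromeric histone H3 variant, was at 105 and 110 CPM untreated and at 44.4 and 45.5 CPM after LPS (-1.26, SE 0.12, edgeR adjusted p = 9.65e-13). Ndc80, the microtubule-binding subunit of the outer kinetochore, rose from 20.1 and 17.7 CPM to 28.8 and 23.1 CPM (0.44, SE 0.18, edgeR adjusted p = 0.0335), but did not pass under 7 of the 14 alternative settings, among them leaving out either untreated library or LPS replicate 1. Its partner Nuf2 had 15 to 44 reads per library and did not pass (log2 fold change -0.34, SE 0.33), nor did the kinetochore motor gene Cenpe (-0.07) or Cenpf (-0.32, SE 0.17, edgeR adjusted p = 0.103). Cenpe was lower after GC correction (-0.32, edgeR adjusted p = 0.0408) and with library size alone (-0.42). Cenpf was lower under upper quartile scaling, scaling by library size alone, GC correction and without LPS replicate 1.

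Among spindle motors and microtubule proteins 4 of 5 fell (80%, beside 25.3% of all genes tested). Kif11, the bipolar kinesin that pushes spindle poles apart, was at 360 and 343 CPM untreated and at 200.0 and 188 CPM after LPS (-0.86, SE 0.09, edgeR adjusted p = 1.18e-11). Kif2c, a microtubule depolymerase at centromeres, was at 47.2 and 47.5 CPM against 25.3 and 28.8 CPM (-0.80, SE 0.15). Hmmr, a spindle-pole protein, was at 24.3 and 31.0 CPM against 11.1 and 14.6 CPM (-1.09, SE 0.20), and Nusap1, which bundles spindle microtubules, was at 113 and 111 CPM against 72.1 and 78.0 CPM (-0.58, SE 0.11). The groups did not overlap in any of these 4 genes, as in 37.6% of all genes tested with LPS lower. Kif4, a chromosome-bound kinesin, rose from 27.2 and 22.1 CPM to 39.9 and 28.8 CPM (0.46, SE 0.17, edgeR adjusted p = 0.0177), and did not pass under 5 alternative settings, among them DESeq2 (adjusted p = 0.168), without untreated replicate 2 (0.32, adjusted p = 0.223) and without LPS replicate 1 (0.22, adjusted p = 0.35).

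Of the central spindle and cytokinesis genes 3 of 5 fell (60%, beside 25.3% of all genes tested). Kif20a, the kinesin that carries passenger proteins to the midzone, was at 101 and 98.6 CPM untreated and at 54.8 and 60.4 CPM after LPS (-0.79, SE 0.12, edgeR adjusted p = 9.66e-08). Ect2, the exchange factor that activates RhoA at the cleavage furrow, was at 122 and 116 CPM against 78.3 and 73.5 CPM (-0.65, SE 0.11), and Anln, anillin of the contractile ring, at 14.3 and 12.6 CPM against 6.93 and 7.29 CPM (-0.92, SE 0.26, edgeR adjusted p = 0.00246, or 0.0804 with DESeq2). Prc1, which cross-links midzone microtubules, was at 37.9 and 42.5 CPM against 47.8 and 47.7 CPM, and Kif23, of the centralspindlin complex, at 23.5 and 19.0 CPM against 25.0 and 21.3 CPM. Neither passed (log2 fold changes 0.25 and 0.11, edgeR adjusted p = 0.108 and 0.645).

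Neither of the 2 genes used widely as marks of cycling cells passed. Top2a, the topoisomerase that untangles chromosomes, was at 167 and 158 CPM untreated and at 185 and 157 CPM after LPS (0.07, SE 0.10, edgeR adjusted p = 0.565). Mki67, which encodes the Ki-67 antigen, was at 98.7 and 115 CPM against 114 and 68.3 CPM (-0.24, SE 0.26, edgeR adjusted p = 0.506). The LPS libraries of Mki67 lay above and below the untreated ones, and it was lower without LPS replicate 1 (-0.64) and at 0.10 without LPS replicate 2. Foxm1, the transcription factor that activates G2/M genes with MuvB, fell from 35.4 and 41.4 CPM to 21.1 and 25.8 CPM (-0.70, SE 0.16, edgeR adjusted p = 0.000248).

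Levels per length differed widely among the members. Per kilobase of merged exons (coding transcripts of GENCODE vM21, which may differ from the annotation counted), the untreated mean was 131 CPM for Aurka, 130 CPM for Ccna2, 110 CPM for Ccnb1 and 96.4 CPM for Plk1, against 2.40 CPM for Nuf2, 2.93 CPM for Anln and 2.94 CPM for Cenpf. After LPS, Ccna2 (87.3 CPM per kilobase) and Aurka (82.8 CPM per kilobase) were still the highest, and Cdc20 went from 88.8 to 31.5 CPM per kilobase while Cdk1 stood at 37.7 and 41.2 CPM per kilobase. Across the 40 members the log2 fold change showed little relation to the mean level (Pearson r = -0.08, Spearman rho = -0.09) and was lower in genes of higher GC content (r = -0.44, rho = -0.42). These correlations are across genes of the same 4 libraries and describe them only. Over all genes tested with a known GC content, 10.9% of the third with the lowest GC and 39.3% of the third with the highest GC fell, beside 9 of 18 and 6 of 7 members in the same GC ranges. With offsets corrected for GC content, 27 members were lower and 2 higher, beside 2408 and 2360 of the 9649 genes tested in that setting.

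The regulators of these genes moved in both directions. Of 19 tested genes of MuvB, E2F and pocket proteins, 7 fell and 3 rose (36.8% and 15.8%, beside 25.3% and 26.6% of all genes tested). The genes of this list named below all fell, and none of its rises is among them. The rises numbered 1 with DESeq2, 1 after GC correction, 1 without untreated replicate 2 and 0 with library size alone, where 12 fell. Mybl2, which encodes B-MYB, the activating partner of MuvB, was at 37.5 and 45.6 CPM untreated and at 20.4 and 17.0 CPM after LPS (-1.15, SE 0.17, edgeR adjusted p = 8.57e-08). E2f4, its repressive counterpart, also fell, from 123 and 130 CPM to 80.7 and 88.3 CPM (-0.58, SE 0.10), as did the E2F partner gene Tfdp2 (-1.31, SE 0.21) and the repressor gene E2f6 (-0.67, SE 0.11). Of 5 tested CDK inhibitor genes, 1 rose and 1 fell (20% each, beside 26.6% and 25.3% of all genes tested). Cdkn1a, the CDK inhibitor p21, rose from 10.3 and 6.41 CPM to 95.6 and 111 CPM (3.60, SE 0.16). Cdkn2c, the CDK4 and CDK6 inhibitor p18, fell (-1.49, SE 0.26) and Cdkn2d did not pass (0.28).

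Other genes of cell division, listed by function but with earlier results of these data known, were read beside the members. Of 18 tested other mitotic regulators, 12 fell and 1 rose (median log2 fold change -0.52). These shares were 66.7% and 5.56%, beside 25.3% and 26.6% of all genes tested. Cdca3 (-1.47, SE 0.13), the centralspindlin gene Racgap1 (-1.09, SE 0.10) and the cyclin F gene Ccnf (-0.94, SE 0.12) had the smallest p-values. Of 19 other spindle and kinesin genes, 11 fell and 1 rose (57.9% and 5.26%, median -0.40). Those with the smallest p-values were Depdc1b (-1.87, SE 0.19), the spindle protein gene Spag5 (-0.83, SE 0.10) and the kinesin gene Kif18b (-0.96, SE 0.13). Of 32 other kinetochore and checkpoint genes, 7 fell and 5 rose (21.9% and 15.6%, median -0.19). DESeq2 gave 2 lower and 2 higher, 11 were lower with upper quartile scaling or GC correction, and 3 were higher without untreated replicate 2 or without LPS replicate 2. Here Pmf1 fell (-0.92, SE 0.12), and Zwint and Mis12 rose (0.97, SE 0.10, and 1.00, SE 0.14).

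Of 8 condensin subunit genes, which compact chromosomes, 4 fell and 1 rose (50% and 12.5%, beside 25.3% and 26.6% of all genes). After GC correction 0 rose. Ncapd2 was at 180 and 163 CPM untreated and at 31.9 and 24.3 CPM after LPS (-2.62, SE 0.13, edgeR adjusted p = 3.08e-23), lower than any member in log2 fold change, and Ncaph (-0.54) and Ncapg (-0.50) fell less. Of 16 APC/C genes, 4 fell and 3 rose (25% and 18.8%, median -0.01), so the share that fell was near that of all genes. After GC correction 1 rose, and 0 with DESeq2. Among the falls were Anapc1 (-0.52), Anapc7 (-0.78) and the coactivator gene Fzr1 (-0.79, SE 0.14), which encodes CDH1. Of 12 cohesin genes, 3 fell and 3 rose, near the shares over all genes in both directions (median -0.01), with Stag2 higher (0.53), Cdca5 lower (-0.49) and Stag1 higher (0.35, or -0.0119 with scaling by library size alone). No cohesin gene (0) was lower without untreated replicate 1 and 1 was with DESeq2, and 1 was higher without untreated replicate 2 or with DESeq2. Of 37 genes of G1/S and DNA replication, 10 fell and 7 rose, 27.0% and 18.9%, beside 25.3% and 26.6% of all genes, and their median was -0.001. Of these, 5 were lower without untreated replicate 2 and 6 with DESeq2. Cdk6 (1.33, SE 0.14) and the helicase subunit gene Mcm6 (0.66, SE 0.09) rose and the cyclin gene Ccnd3 fell (-0.80, SE 0.11). The difference between these lists and the members was not tested.

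**Figure D4:**
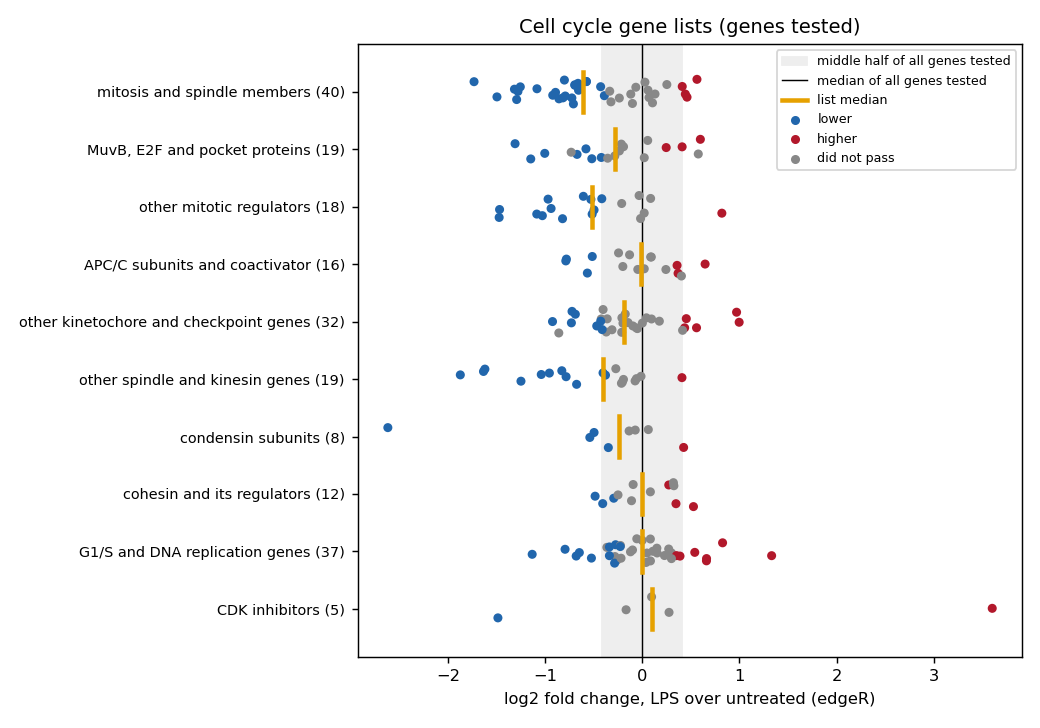
Log2 fold change, LPS over untreated, of each tested gene (points, coloured by call) in the members and 9 other cell division lists, with the list median (orange bar), the median of all genes tested (black line) and their middle 50% (grey band). The members' median of -0.61 lies to the left of every other list's, and the G1/S list's median of -0.001 lies on the line of all genes.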

How the data were processed

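Ribosomal RNA was removed before strand-specific library preparation, per the labels' protocols, whose extraction text names another cell type (hMSCs). Each library has 1 deposited file of raw counts per gene symbol, in 3 columns by strand. Per the submitters' processing notes, the tools were STAR 2.5.1, Trimmomatic 0.33 and CASAVA 1.8.2, with DESeq2 also listed. The same notes name the build hg19, whereas the symbols are mouse, so no coordinate of a counted gene is printed. The sources used here do not give the annotation that was counted. Counts of column 4 (reverse strand) were used, without the 4 summary lines.

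All genes were fitted together with edgeR 4.0.16 in R 4.3.3 (filterByExpr, TMM, robust quasi-likelihood test, two-sided, treatment as the only term, Benjamini-Hochberg adjusted p below 0.05), which tested 9992 of 12982 genes with any count and was checked on simulated data. The SE is approximate (size of the log2 fold change over root F). Libraries within a group were not copies of each other: chi-square over degrees of freedom was 1.52 untreated and 2.44 after LPS. Members, lists and naming rule (all members; 3 genes per other list by smallest p, with Cdkn1a, Mybl2 and E2f4) were chosen with earlier results of these data known. Alternatives were other scalings, DESeq2 1.42.0, other filters, unstranded counts, a replicate block, 5 abundant entries (Rn45s, Lars2, Mir6236, Rmrp, Rpph1) left out, GC-corrected offsets and each library left out.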

Additional observations from a re-analysis of the deposited data

Results flagged for a closer look

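Reads on the strand opposite to a member reached 20 counts over the 4 libraries in Ccna2, Nusap1 and Kif20a. Of the fits above, only the alternative with unstranded counts includes such reads. At Ccna2 they stood at 13.0 and 11.9 CPM untreated and at 18.0 and 19.7 CPM after LPS, a mean of 18.9 CPM after LPS that lay above both untreated libraries, while Ccna2 itself fell. At Kif20a they stood at 10.9 and 9.73 CPM against 14.6 and 10.3 CPM, with overlap. At Nusap1 they stood at 4.59 and 5.31 CPM against 4.51 and 3.95 CPM. None of these differences was tested.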

How the results depend on the processing

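Under 14 alternative settings, 21 of the 24 falling members kept their call in all, the other 3 being Cdc25c, Ttk and Anln, and all 24 stayed negative; the number lower ranged from 21 to 31. The number of members higher was 4, and 2 with upper quartile scaling, 0 with library size alone, 0 with DESeq2, 2 with GC correction and 1 to 4 when a library was left out (1 without untreated replicate 2). No rise kept its call in every setting. Scaling by library size alone moved the median of all genes to -0.36 and that of the members to -0.97, and gave 4778 of all genes lower after LPS and 1379 higher, against 2527 and 2659. DESeq2 gave 1486 of all genes lower after LPS. Of 166 tested genes in the other lists, 59 were lower and 25 higher, and 111 and 8 with library size alone; 14 were higher with DESeq2, 14 after GC correction, and 14 (without untreated replicate 2) to 26 when a library was left out.

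Among named genes, 9 members that did not pass, with Stag1 and Cdkn2d, turned sign in some setting. With library size alone the log2 fold change was -0.23 for Cdk1, -0.33 for Tpx2, -0.30 for Incenp, -0.25 for Kif23, -0.10 for Prc1, -0.29 for Top2a, -0.0119 for Stag1 and -0.0818 for Cdkn2d. With upper quartile scaling it was -0.0695 for Tpx2, -0.0382 for Incenp and -0.0271 for Top2a, and after GC correction -0.052 for Tpx2, -0.0312 for Kif23 and -0.18 for Top2a. Leaving out each library in turn gave -0.008 to 0.25 for Cdk1, -0.0804 to 0.12 for Tpx2, -0.0316 to 0.13 for Incenp, -0.19 to 0.0555 for Cenpe, -0.66 to 0.13 for Nuf2, -0.0391 to 0.27 for Kif23, -0.64 to 0.10 for Mki67 and -0.0535 to 0.19 for Top2a. The cause of these shifts was not tested.

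The replicate block, with numbers taken from the labels, gave 24 members lower and 4 higher. Libraries of the same number did not deviate together (r = -0.04 across genes). This correlation cannot show whether they were paired, and the numbers are used here only as names. Depth limits Nuf2 (99 reads in all) and Anln (176 reads).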
